A study of Helianthemum marifolium subsp. andalusicum and Helianthemum marifolium subsp. marifolium and Helianthemum marifolium subsp. molle with 16 samples.

Results

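In leaves of Helianthemum marifolium, 124 of 100462 clusters of assembled transcripts were found in every library and stood higher in each library of subspecies andalusicum than in any library of the other 3 subspecies. They were chosen by that pattern. A cluster had to have at least 10 counts in all 16 libraries, which 18896 clusters did, and its lowest level among the 4 andalusicum libraries had to lie above its highest level among the 12 others. Levels are CPM, the count of a cluster divided by all counts of its library and multiplied by 1000000. The same values therefore chose the members and describe their height in andalusicum, so that height is a description with no test. The 124 clusters were 0.656% of the clusters shared by all libraries.

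Helianthemum is a genus of rock-roses, low shrubs of the family Cistaceae. Leaf RNA was sequenced here without a genome: reads were assembled into transcripts de novo, transcripts were grouped into clusters, and a cluster approximates a gene, a gene copy, an allele or a fragment of a gene. A transcript that every subspecies makes but one makes more of differs in dose, unlike a transcript that is present or absent. The deposited files pair no gene names or sequences with the clusters, so no function can be given to a member and the leaf identity of the RNA could not be checked against marker genes.

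The groups were subspecies andalusicum, marifolium, molle and origanifolium, with 4 libraries each, all of poly-A RNA from adult leaves near the shoot tip. Plants of all groups were raised from scarified seed in a greenhouse and sampled on day 446 after sowing, and no treatment distinguishes them. Titles also carry a code held by 2 libraries each, andal261 and andal260 within andalusicum, whose meaning the sources used here do not state. Separate plants per library are not stated either, and p-values below therefore rest on the spread between these libraries, which may be partly technical.

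Library totals ran from 22170314 counts in origanifolium 31 to 34121011 in molle 22, and libraries are named by subspecies and library number. Of each library's counts, 89.97% to 94.8% lay in shared clusters. Marifolium 12 and 18 were looked at apart. Of their counts, 1.60% and 2.52% lay in 6223 clusters that were picked for having over 95% of their counts in these libraries. By that pick any other library had 0.0057% at most, and no like count is given for other pairs of libraries. None of the 6223 clusters can be a member, but marifolium 12 and 18 help set the upper edge of the others and enter each fit. Some of the counts and calls below that rest on them are therefore also given without them, and the remainder with all libraries only. Without both, 188 clusters met the rule, all 124 members among them. In this bulk RNA, fewer cells of a type and less RNA per cell cannot be told apart.

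Applied to the other subspecies in turn, the same rule chose 60 shared clusters in marifolium, 89 in molle and 198 in origanifolium. Being raised in all libraries of a single subspecies was thus not particular to andalusicum.

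Together the members filled a small part of each library, and a larger one in andalusicum by the way they were chosen. Their summed share of all counts was 1.07% ± 0.131 in andalusicum libraries, against 0.349% ± 0.0237 in those of marifolium, 0.435% ± 0.107 in those of molle and 0.322% ± 0.0422 in those of origanifolium (mean ± SD, n = 4 each). Without marifolium 12 and 18, the remaining marifolium libraries held 0.374% and 0.320%. The most abundant member supplied much of that sum, and without it the members summed to between 5767 and 7166 CPM in andalusicum libraries, 2661 to 2763 in marifolium, 2775 to 3202 in molle and 2566 to 2792 in origanifolium. The median member stood at 25.8 ± 2.66 CPM in andalusicum, against 10.3 ± 0.897 CPM in marifolium, 10.9 ± 0.839 CPM in molle and 10.4 ± 0.576 CPM for origanifolium. Most members were transcripts of middling level, with an andalusicum mean between 10 and 100 CPM in 95, above 100 CPM in 14 and below 10 CPM in 15. The lowest count of a member in any library ran from 10 to 9952, with a median of 148.

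**Figure D1:**
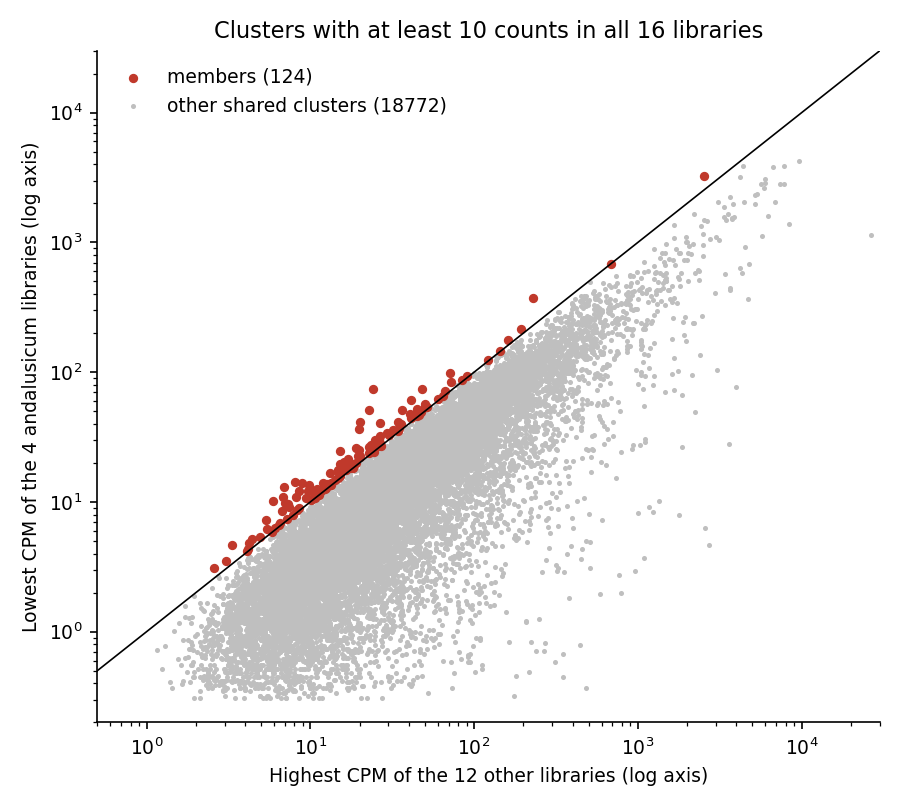
Each point is 1 of the clusters with at least 10 counts in all 16 libraries, with its highest CPM among the 12 other libraries on the horizontal log axis and its lowest CPM among the 4 andalusicum libraries on the vertical log axis. The line marks equal values, the 124 members lie above it by the rule, and most lie close to it.

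For most members the gap between andalusicum and the others was narrow. The ratio of the lowest andalusicum library to the highest other library had a median of 1.11 and quartiles of 1.04 and 1.26. It reached 1.2 in 39 members, 1.5 in 13, 2 in 3 and 3 in 1. Group means differed more than these extremes: the mean of andalusicum over the mean of the other 12 libraries was 2.25-fold in the median member, ran from 1.34-fold to 25.2-fold, and was at least 2-fold in 73, 3-fold in 39 and 10-fold in 2. At the boundary, the member nearest to it had 684 CPM in its lowest andalusicum library against 683 CPM in its highest other library, and the next had 18.4 against 18.3 CPM and 27.0 against 26.9 CPM. Just outside lay clusters with 79.19 against 79.22 CPM, 14.11 against 14.14 CPM and 12.73 against 12.76 CPM. A further measure of how finely the boundary runs is that 62 non-members had a ratio between 0.95 and 1, and 155 between 0.9 and 1.

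Cluster-3823.43201 had the largest gap. It is a single transcript of 2122 nt, and it stood at 74.8, 143, 102 and 94.5 CPM in andalusicum 1, 3, 6 and 8. In the other subspecies it had 11.2, 11.0, 24.0 and 7.57 CPM in marifolium 12, 15, 17 and 18, 12.8, 11.3, 14.1 and 12.6 CPM in molle 22, 25, 27 and 29, and 16.5, 19.5, 10.04 and 10.7 CPM in origanifolium 31, 33, 38 and 39. Its lowest andalusicum library was 3.11 times its highest other library, marifolium 17, and the other 3 subspecies overlapped fully with each other. The group means were 104 ± 28.5 CPM in andalusicum (SD, n = 4) and 13.5 ± 4.56 CPM in the others (n = 12), 7.69-fold apart. Per kilobase of transcript the means were 48.8 CPM in andalusicum and 6.34 CPM in the others.

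The member with the second largest gap owed its mean to 1 library. It had 1256, 50.9, 93.6 and 54.1 CPM in andalusicum 1, 3, 6 and 8, against 3.27 to 23.0 CPM in the 12 others, with a median of 14.4 CPM. Andalusicum 1 lay more than 10-fold above the remaining andalusicum libraries, and those 3 still lay above every other library. The mean was 364 ± 595 CPM in andalusicum and 14.4 ± 5.90 CPM in the others, and the log2 fold change fitted by edgeR was 4.53 with all libraries and 2.17 without andalusicum 1.

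Molle came next to andalusicum in mean level in the 3 members that follow. The third, a transcript of 2551 nt, had 49.3, 55.4, 41.3 and 47.0 CPM in andalusicum 1, 3, 6 and 8, against 6.04 to 18.7 CPM in marifolium, 17.0 to 20.1 CPM in molle and 6.77 to 11.4 CPM in origanifolium. Molle lay above every origanifolium library there but not above every marifolium library. The fourth had 13.3, 13.0, 29.4 and 19.9 CPM in andalusicum, against 0.818 to 4.24 CPM in marifolium, 2.67 to 6.95 CPM in molle and 3.15 to 6.04 CPM in origanifolium. In that member the other 3 subspecies overlapped. The fifth had 36.3, 36.9, 36.3 and 43.4 CPM in andalusicum, against 6.43, 6.46, 6.21 and 3.14 CPM in marifolium, 10.7, 9.44, 10.2 and 19.9 CPM in molle, and 5.01, 8.19, 5.09 and 3.78 CPM in origanifolium. Here molle formed a middle tier, with all 4 of its libraries above the 8 of marifolium and origanifolium.

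Cluster-3823.45075 was the most abundant member. It had 3278, 6193, 4803 and 3223 CPM in andalusicum 1, 3, 6 and 8, against 870.1, 989.7, 439.9 and 748 CPM in marifolium, 1625, 2527, 754 and 546 CPM in molle, and 1152, 185, 527 and 428 CPM in origanifolium. The other subspecies varied widely and overlapped, with molle alone spanning 546 to 2527 CPM. Means were 4374 ± 1416 CPM in andalusicum and 899 ± 639.6 CPM in the others, 4.86-fold apart.

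The second most abundant member is also the one nearest to the boundary of the rule. It had 684, 1075, 693 and 776 CPM in andalusicum, against 494 to 637 CPM in marifolium, 332 to 562 CPM in molle and 378 to 683 CPM in origanifolium, and its means of 807 ± 183 and 520.1 ± 107 CPM differed 1.55-fold. Andalusicum 1 and 6 and origanifolium 39 nearly met in that member. The third most abundant, a transcript of 1491 nt, was clearly separated, with 451, 418, 369.8 and 513 CPM in andalusicum, 45.1, 48.96, 54.6 and 74.2 CPM in marifolium, 179, 230.3, 218 and 163 CPM in molle, and 94.2, 79.8, 74.3 and 54.0 CPM in origanifolium. Its levels formed tiers, with andalusicum highest, molle between, and marifolium and origanifolium overlapping at the bottom. The fourth is the member with the second largest gap, and the fifth had 217, 215, 248 and 265 CPM in andalusicum against 62.2 to 194 CPM in the others, with a median of 131 CPM. At the other end, the least abundant member had 5.82, 3.58, 6.94 and 3.49 CPM in andalusicum against 0.487 to 3.08 CPM in the others, and the next had 3.12, 3.19, 4.79 and 9.09 CPM against 0.812 to 2.58 CPM. At these levels fewer counts lie behind a library than in the members above, and the gap rests on smaller numbers.

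**Figure D2:**
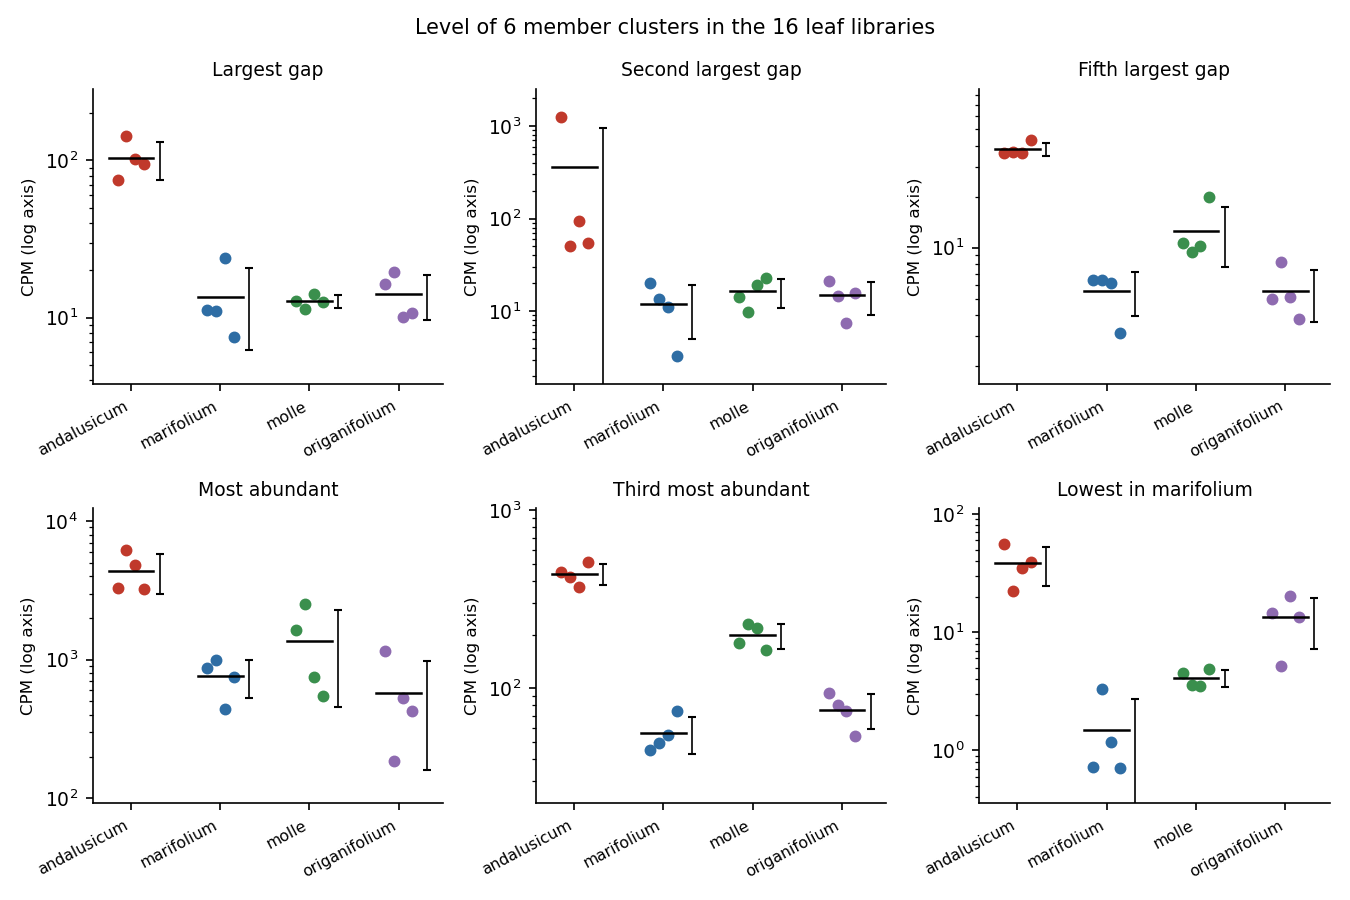
Levels of 6 members in CPM on a log axis, by subspecies, where each point is 1 library, the line is the mean of 4 libraries and the bar beside it is 1 SD (cut off at the axis where it passes 0). The second largest gap shows 1 andalusicum library at 1256 CPM, and the third most abundant member shows molle at 163 to 230.3 CPM between andalusicum and the overlapping marifolium and origanifolium libraries.

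Within andalusicum the members were even. The highest library exceeded the lowest by a median of 1.56-fold, and by less than 2-fold in 96 of the 124 members, which is 77.4% of members against 44.8% of all shared clusters. A rule that needs 4 high values favours even clusters, so this difference is a description. The most even of the members named so far was the fifth by gap, and the member with the 13th largest gap was more even still, at 41.3, 43.5, 43.0 and 40.5 CPM in andalusicum against 3.78 to 26.5 CPM in the others. No single andalusicum library set the lower edge in most members. Andalusicum 3 was the lowest of the 4 most often, in 37 members, andalusicum 8 in 35, andalusicum 1 in 29 and andalusicum 6 in 23.

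The rule does not name the title codes of andalusicum, but by its lowest library it favours members that are even across them, so few calls between the codes are read as a description. Between andal261 (andalusicum 6 and 8) and andal260 (andalusicum 1 and 3), edgeR called 0 of the 124 members at an adjusted p under 0.05, where 0.0369% of the 46027 tested clusters were called. At an unadjusted p under 0.05 there was 1 member, 0.806% of members against 7.71% of tested clusters, and DESeq2 called 1 member, where it called 2.34% of tested clusters. The median log2 fold change was 0.01 in members and -0.02 over all tested clusters, with 63 members higher in andal261.

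All 124 members passed the expression filter of edgeR. Against the mean of the other 3 subspecies, edgeR called 76 members higher in andalusicum and 0 lower, where 3.79% of tested clusters were called in either direction and 3.03% higher. DESeq2 called 105 members higher (8.92% of tested clusters in either direction) and limma voom 89 (4.89%). This comparison is the contrast of the rule and nothing is read from the counts. Members' fitted log2 fold changes had a median of 1.14, against 0.07 over all tested clusters. Against single subspecies, which share the andalusicum libraries, edgeR called 39 members higher than in marifolium (1.34% of tested clusters were higher), 7 higher than in molle (0.211%) and 32 higher than in origanifolium (0.997%). In the same order, DESeq2 called 81, 57 and 91 members higher, where it called 9.97%, 6.02% and 10.2% of tested clusters in either direction. Limma voom called 59, 28 and 57 members higher, where it called 4.72%, 2.37% and 4.97%. The counts thus depended on the tool. The median log2 differences in edgeR were 1.17 against marifolium, 0.99 against molle and 1.28 against origanifolium. Members called by edgeR against each of the 3 numbered 3, of 27 such clusters over the whole table.

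The rule sets no order among the other 3 subspecies, but it caps their highest library and so leaves out clusters with a high value in any of them. Marifolium 17 was the highest of the 12 in 18.8% of shared clusters and in 8.87% of members. The order of the others is therefore described, not offered as independent of the rule. Molle was most often next to andalusicum. It had the second highest mean in 58 members, marifolium in 34 and origanifolium in 32. As shares, molle was next in 46.8% of members and was the highest of the 3 in 30.8% of all shared clusters, marifolium in 27.4% of members and 34.8% of shared clusters, and origanifolium in 25.8% and 34.4%. The highest other library, the value that the rule caps, was a molle library in 53 members, or 42.7% against 30.0% of shared clusters. Without marifolium 12 and 18, molle had the highest mean of the 3 in 61 members and held the highest other library in 63, marifolium in 34 and 25, and origanifolium in 29 and 36. With all libraries, molle was the lowest of the 3 in 31 members, marifolium in 47 and origanifolium in 46. These are counts over members that share libraries, with no test of the counts themselves.

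For the median member the molle lead was small. The log2 fold change of molle over marifolium had a median of 0.24 in members and 0.05 in shared clusters, with 83 of 124 members above 0 (66.9% against 53.9% of shared clusters). Molle over origanifolium had a median of 0.19 in members and 0.04 in shared clusters, with 82 members above 0 (66.1% against 52.7%). Marifolium over origanifolium had a median of 0.02 in members and -0.0049 in shared clusters, with 65 members above 0. The members above 0 numbered 80 to 89 for molle over marifolium and 78 to 89 for molle over origanifolium in 23 alternative fits.

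**Figure D3:**
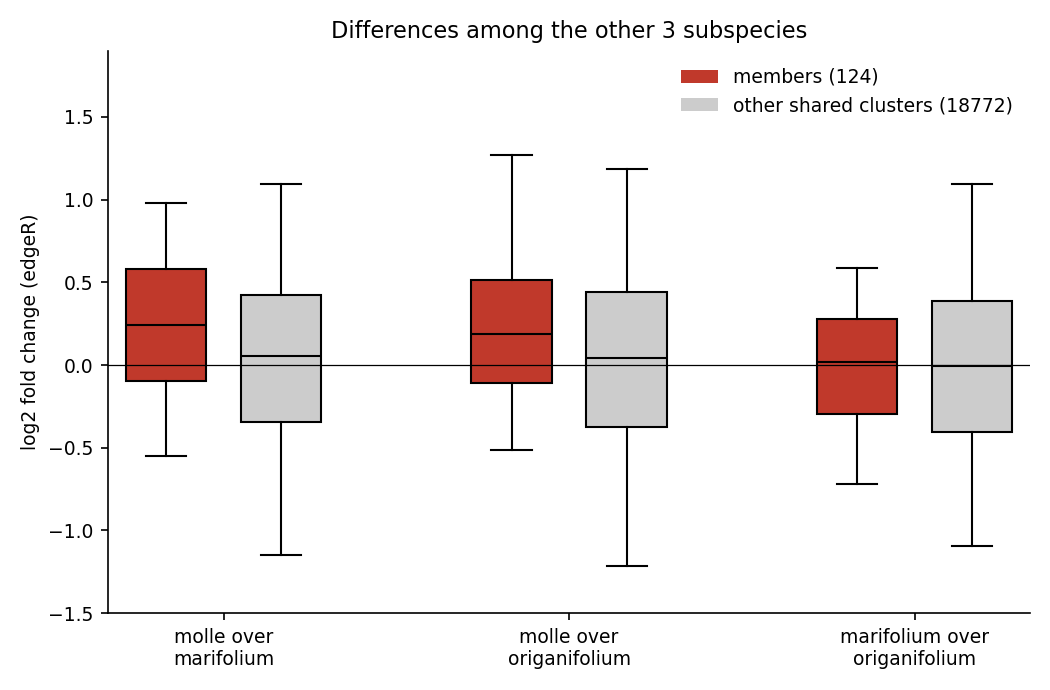
Boxes give the median and quartiles of edgeR log2 fold changes among the other 3 subspecies for the 124 members (left box of each pair) and the other 18772 shared clusters (right box), with whiskers at the 5th and 95th percentiles. The members' median lies at 0.24 for molle over marifolium and at 0.19 for molle over origanifolium, and at 0.02 for marifolium over origanifolium.

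Few single members passed the test among these pairs. For molle against marifolium, 1 member was called higher in molle and 0 lower, where 1.66% of tested clusters were called in either direction, and 15 members had an unadjusted p under 0.05 (12.1% against 19.8% of tested clusters). For molle against origanifolium, 2 were called higher and 0 lower (1.54% of tested clusters in either direction), and 22 had an unadjusted p under 0.05 (17.7% against 17.9%). For marifolium against origanifolium, 0 were called higher and 1 lower (0.269%), and 8 had an unadjusted p under 0.05 (6.45% against 17.0%). In these pairs, in the same order, DESeq2 called 7, 11 and 3 members, where it called 9.8%, 8.7% and 7.02% of tested clusters. Limma voom called 2 members in each, where it called 3.73%, 3.51% and 2.36% of tested clusters.

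The member called in both molle pairs is the third most abundant, with its tiers described above. In molle it lay above marifolium by 1.93 ± 0.25 on the log2 scale (SE, edgeR adjusted p = 0.00132) and above origanifolium by 1.46 ± 0.24 (edgeR adjusted p = 0.00782). Means were 198 ± 31.7 CPM for molle, against 55.7 ± 12.9 CPM for marifolium and 75.6 ± 16.6 CPM for origanifolium (SD, n = 4), and andalusicum stood at 438 ± 59.9 CPM. Marifolium and origanifolium could not be distinguished there, at -0.47 ± 0.24 (edgeR adjusted p = 0.343). Both molle calls were lost when the libraries of a title code were summed (edgeR adjusted p = 0.104 against marifolium and 0.152 against origanifolium).

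The other member called for molle against origanifolium, a transcript of 1184 nt named after its values were seen, had 44.9, 44.8, 40.8 and 32.6 CPM in molle and 19.3, 16.5, 17.8 and 16.8 CPM in origanifolium. The groups did not overlap, and marifolium spanned both at 33.1, 37.9, 15.8 and 17.5 CPM, with marif085 high and marif089 low. Andalusicum had 52.9, 61.8, 45.8 and 49.0 CPM. The log2 fold change of molle over origanifolium was 1.28 ± 0.30 (edgeR adjusted p = 0.0473), and the call was kept in 6 of 23 alternative fits, which gave adjusted p between 0.0011 and 0.431.

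The member that differed between marifolium and origanifolium, a transcript of 1151 nt, ordered all 4 subspecies. It had 55.9, 22.4, 35.2 and 39.6 CPM in andalusicum, 0.728, 3.31, 1.17 and 0.716 CPM in marifolium, 4.51, 3.57, 3.48 and 4.87 CPM in molle, and 14.5, 5.20, 20.2 and 13.5 CPM in origanifolium. No 2 groups overlapped, with marifolium lowest and molle and origanifolium between it and andalusicum. It was the single member with all origanifolium libraries above the 8 of marifolium and molle, and the single one with all marifolium libraries below the 8 of molle and origanifolium. The log2 fold change of marifolium over origanifolium was -3.15 ± 0.55 (edgeR adjusted p = 0.0272). It was -2.51 (adjusted p = 0.255) without marifolium 12 and 18, and the call was kept in 13 of 23 alternative fits.

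Full separation among the other 3 subspecies was rare in members. All 4 molle libraries lay above the 8 of marifolium and origanifolium in 4 members, 3.23% of members against 1.55% of shared clusters. They are the members with the 5th, 10th, 13th and 94th largest gaps, and the 10th is the third most abundant. The share was 1.82% of shared clusters for origanifolium above the others and 0.889% for marifolium below them, with 1 member in each case. Marifolium lay above the 8 others in 0 members (0.91% of shared clusters), molle below them in 0 (1.47%) and origanifolium below them in 0 (1.29%). Without marifolium 12 and 18, which leaves marifolium with fewer libraries to separate, molle lay above the others in 6 members (2.69% of shared clusters), origanifolium above in 1 (2.65%) and marifolium below in 7 (3.82%). Marifolium then lay above the others in 3 members (3.91%), origanifolium below in 2 (2.22%) and molle below in 0 (2.75%).

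Members resembled other shared clusters in what the deposited transcript list records. Of the 124, 121 held a single transcript, or 97.6% against 96.1% of shared clusters. Lengths are recorded in the names of 41 single-transcript members and ran from 294 to 4911 nt with a median of 1763 nt, against a median of 1653 nt in 6825 shared clusters. Per kilobase, these 41 members had a median mean level of 20.9 CPM in andalusicum and 7.76 CPM in the others.

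Clusters can split a gene. A member's sisters are here the non-member clusters whose transcripts carry the same assembler gene name. Each of them failed the rule on its own counts, so their values are described and are not independent of the rule. No member shared such a name with another member. In total, 25 members had a sister and 99 had none, and 18 of the 25 had exactly 1. One member, a transcript of 733 nt, shared its assembler gene name with 632 sisters, and these are described apart. The remaining 24 members had 38 sisters. Over all 198 sisters that could be tested, edgeR called 5 higher and 4 lower in andalusicum, 4.55% against 3.79% of tested clusters. Of the 38, 28 were tested, 2 were called higher and 1 lower (10.7% against 3.79% of tested clusters), and 13 had an unadjusted p under 0.05 (46.4% against 18.8%). Their log2 fold changes had a median of 0.31 and ran from -6.61 to 5.16, with 19 above 0 and 9 below.

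Summing a member with its sisters took most of the 24 below the rule. The sum still met the rule in 10 and not in 14, and its ratio of lowest andalusicum to highest other library was below that of the member alone in 21. The fold of means was 1.69 for the median sum and 2.26 for the median member of these 24. Members were chosen for a ratio above 1, and their sisters failed the rule. That choice by itself favours lower ratios and folds for the sums, so these values are a description. Reads that fit several such clusters may have been divided among them or given to 1 of them, and the part this plays in the members' height was not tested.

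**Figure D4:**
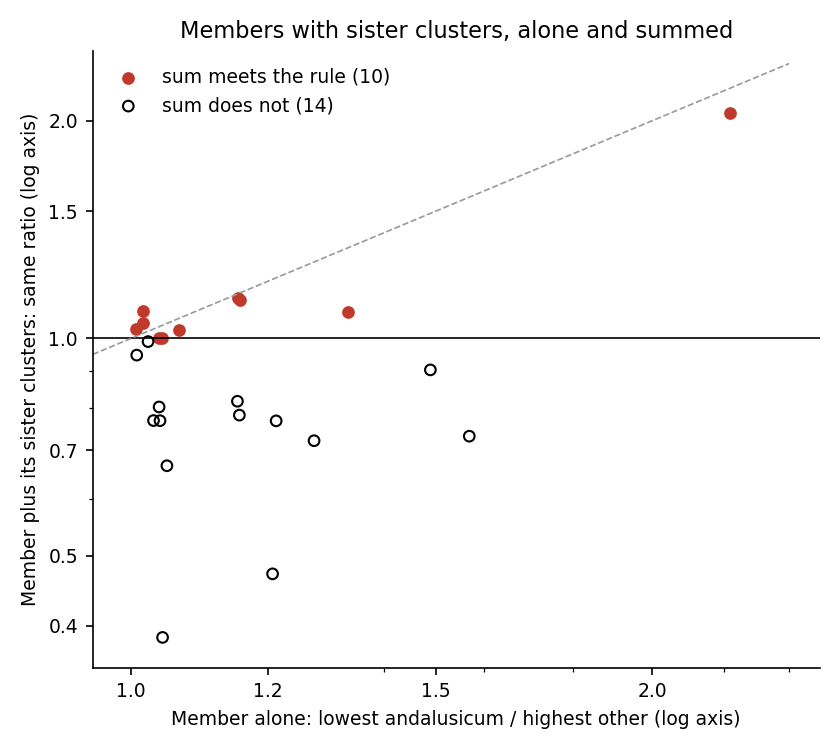
Each point is 1 of 24 members with sister clusters, with the ratio of its lowest andalusicum to its highest other library on the horizontal log axis and the same ratio for the member summed with its sisters on the vertical log axis. The solid line marks a ratio of 1, the dashed line equal values, and 14 sums lie below 1.

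The most abundant member shows this in detail. Its sister had 2381, 3666, 3903 and 2543 CPM in andalusicum 1, 3, 6 and 8, against 1323 to 2662 CPM in marifolium, 1727 to 5314 CPM in molle and 2167 to 3986 CPM in origanifolium. All groups overlapped in the sister, at 3123 ± 773 CPM in andalusicum and 3123 ± 1650 CPM in molle, and its log2 fold change was 0.19 ± 0.33 (edgeR adjusted p = 0.838). The sum of both averaged 7497 CPM in andalusicum and 3553 CPM in the others, and its lowest andalusicum library was 0.722 times its highest other library.

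The called sisters of the 24 did not share a direction. The sister of the member with the second largest gap had 103, 6.80, 6.53 and 4.16 CPM in andalusicum 1, 3, 6 and 8, against 1.19 to 10.1 CPM in the others, so it repeated the single high value of andalusicum 1 and otherwise overlapped with marifolium 17. Its log2 fold change was 3.22 ± 0.64 (edgeR adjusted p = 0.0122) with all libraries and 0.97 (adjusted p = 0.39) without andalusicum 1. A sister of the member with the 23rd largest gap went the other way, at 0.0660 ± 0.0567 CPM in andalusicum and 1.61 ± 1.31 CPM in the others (log2 fold change -4.10 ± 0.99, edgeR adjusted p = 0.0317), while the member itself averaged 17.5 CPM in andalusicum and 5.08 CPM in the others. That call was kept in 10 of 21 alternative fits and was lost when any 1 of the 4 andalusicum libraries was left out. A sister of the member with the 119th largest gap, named after its values were seen, had 0.277, 13.3, 3.64 and 5.72 CPM in andalusicum 1, 3, 6 and 8, against 0 to 2.64 CPM in the others (edgeR adjusted p = 0.0368). Andalusicum 1 lay among the other libraries there, and andalusicum 3 carried much of the mean.

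Among the 632 sisters of the transcript of 733 nt, 1 had 0 counts in the 4 andalusicum libraries. With 3 counts taken as the upper limit, a count of 0 there allows at most 0.0918 CPM in andalusicum 8 and 0.111 CPM in andalusicum 6. That sister had 2.17 to 13.1 CPM in the other libraries (edgeR adjusted p = 0.00012). Another lay at 5.82, 4.61, 5.83 and 9.91 CPM in andalusicum against at most 0.0372 CPM elsewhere (edgeR adjusted p = 0.000584), and a further one at 6.13, 3.58, 6.27 and 12.6 CPM in andalusicum against 27.8 to 92.8 CPM in the others (log2 fold change -2.86 ± 0.42, edgeR adjusted p = 0.0018). The member itself had 10.2, 11.1, 10.5 and 16.3 CPM in andalusicum against 2.01 to 5.89 CPM in the others. One more that was called higher in andalusicum had 0.104, 5.28, 1.08 and 0.643 CPM in andalusicum 1, 3, 6 and 8 against 0 to 0.499 CPM in the others (edgeR adjusted p = 0.0137). Andalusicum 1 overlapped with the others in it, and the call was kept in 17 of 21 alternative fits. These clusters were picked for the smallest adjusted p in each direction, and 170 of the 632 were tested. They differed in both directions, and 1 had 0 counts in andalusicum, but they do not stand for the other sisters. Over all 198 tested sisters, 4.55% were called, against 3.79% of tested clusters.

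The list of members depended on scaling, for all but those with the wider gaps. With CPM on TMM effective library sizes, 99 clusters met the rule and 76 of them were members. With DESeq2 size factors, 103 met it and 78 were members. With every library thinned to the total of the shallowest, 121 met it and 110 were members. Members with a ratio of at least 1.2 were kept by TMM and by DESeq2 scaling in 39 of 39 cases. Those with a ratio from 1.1 to 1.2 were kept in 16 and 17 of 27, and those below 1.1 in 21 and 22 of 58. In all, 68 members met the rule under all 3 scalings. Leaving out an andalusicum library let many more clusters in, 301 without andalusicum 3, 240 without andalusicum 8, 201 without andalusicum 1 and 181 without andalusicum 6, and leaving out any other library gave 134 to 171.

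**Figure D5:**
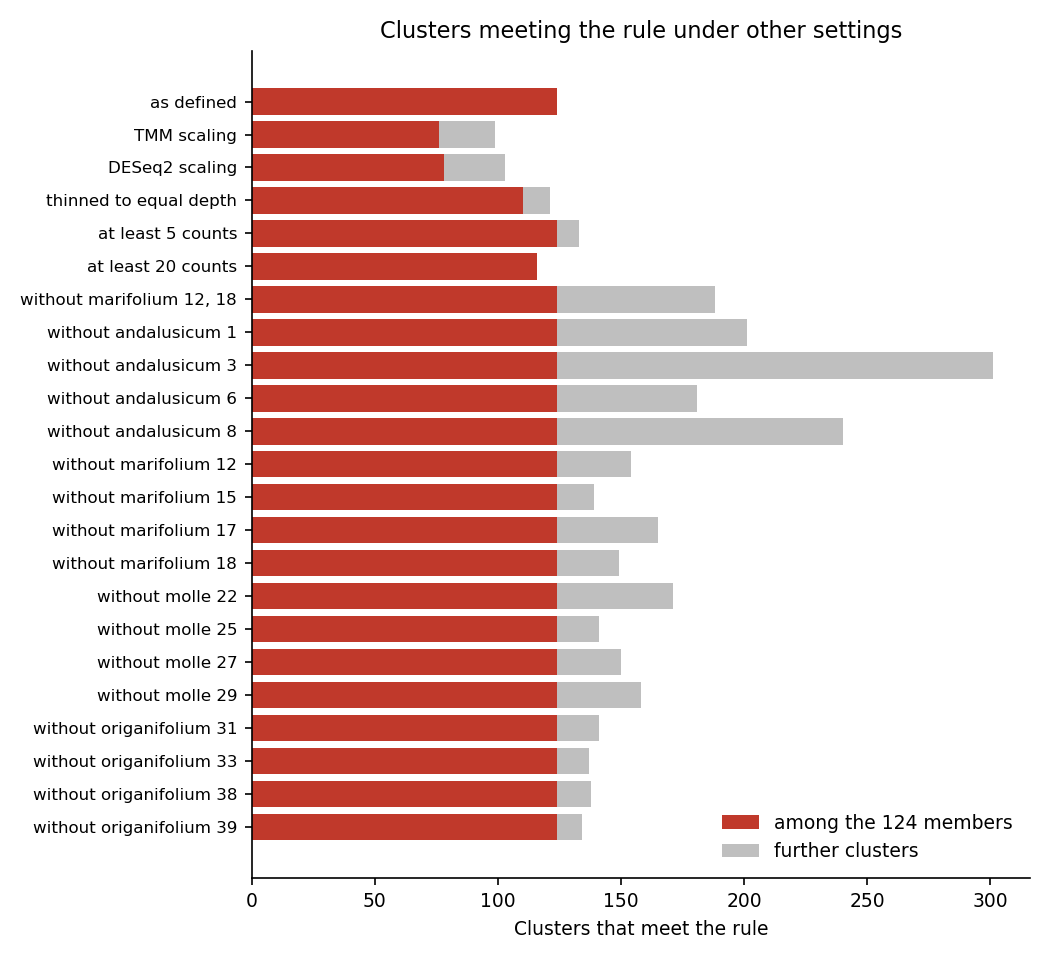
Bars give the number of clusters that meet the rule under each setting, with the 124 members in the dark part and further clusters in the light part. TMM scaling keeps 76 members and leaving out andalusicum 3 lets in the most, for 301 clusters in all.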

How the data were processed

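The 16 libraries, 4 of each subspecies, hold poly-A RNA of adult leaves, per the labels' protocols. As values, the authors deposited whole-number counts per cluster of assembled transcripts and a list of 122009 transcripts with their clusters, of which 18116 stand under names without counts and were not used. FastQC was among the tools, per the submitters' processing notes. For assembler, aligner, counter and strandedness, names and settings were not given in the sources used here. Transcript names resemble those of Trinity and Oases, and "assembler gene name" means the part of a name that such tools give to a gene. Reads from paralogs, alleles or antisense transcripts cannot be told apart.

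The members and lists were chosen with earlier results of these data known. CPM was computed from the deposited counts with pandas 2.3.3. Tests used R 4.3.3 and edgeR 4.0.16 (quasi-likelihood F-test with TMM and filterByExpr by subspecies, with Benjamini-Hochberg adjustment over the 46027 clusters tested, 54435 left out, adjusted p under 0.05) on all 16 libraries, with a common dispersion of 1.10. Title codes were compared in a model of 8 codes. Alternatives were DESeq2 1.42.0, limma 3.58.1 (voom, title code as a random block), other filters, libraries of a code summed, and libraries left out. The edgeR step was tested on simulated data. Library numbers are not shared between subspecies.

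Members were named by a rule: the 5 largest gaps, the 5 highest and 2 lowest andalusicum means, those nearest to the boundary, the called member with the smallest adjusted p in each comparison other than the rule's own, and the 3 sisters with the smallest adjusted p in each direction. Identifiers are printed for 2.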

Additional observations from a re-analysis of the deposited data

Results flagged for a closer look

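Single libraries stood far from the rest of their group in 9 of 92 groups of 4 libraries examined (9.78%). About 1 in 20 is the nominal rate for normally distributed values, and no excess is read from the difference. The gap of such a library to its nearest neighbour took up most of the range of its group, past the 95% critical value of Dixon's test. The member with the second largest gap had 1256 CPM in andalusicum 1, and its sister had 103 CPM in the same library, so that both rest on andalusicum 1 for their means. That sister also had 10.1 CPM in marifolium 17. The member with the fourth largest gap had 6.04 CPM in origanifolium 31. The member with the fifth largest gap had a library apart in 3 groups, at 43.4 CPM in andalusicum 8, 3.14 CPM in marifolium 18 and 19.9 CPM in molle 29. In the called sister of the member with the 23rd largest gap, marifolium 15 lay low at 1.69 CPM. Among the marifolium libraries, the summed level of the members without the most abundant was lowest in marifolium 18, at 2661 CPM. The causes were not tested.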

How the results depend on the processing

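No paired analysis was possible because library numbers are not shared between subspecies. The number of clusters meeting the rule was 738 with no minimum count, 188 without marifolium 12 and 18, and 134 to 301 without 1 library. Members called for andalusicum against the others numbered 3 with the libraries of each code summed (fewer samples), 49 without marifolium 12 and 18, and 44 to 79 without 1 library (48, 47 and 44 without andalusicum 3, 6 and 8). For molle against marifolium, calls numbered 7 with DESeq2, 2 with at least 1 CPM in 8 libraries, 0 with codes summed, 2 with voom and 1 to 2 without 1 library. For molle against origanifolium they numbered 11 with DESeq2, 0 with codes summed, 1 with no filter, with the 12 other libraries alone and without marifolium 12 and 18, and 1 to 4 without 1 library. For marifolium against origanifolium they numbered 3 with DESeq2, 2 with voom, 0 with codes summed, with the 12 other libraries alone and without marifolium 12 and 18, and 0 to 1 without 1 library. Between andal261 and andal260, DESeq2 and the fit with no filter called 1 each, and every fit without 1 library called 0. Called sisters numbered 26 with DESeq2, 5 with at least 1 CPM in 8 libraries, 1 with codes summed, 4 without marifolium 12 and 18, 3 without the 632 sisters of 1 member (an alternative added after seeing the data), and 7 to 18 without 1 library (15, 15 and 18 without marifolium 12, 17 and 18). Some fits had fewer samples or clusters, and the causes of the changes were not tested. No named cluster changed direction. The members' median for marifolium against origanifolium, 0.02, ran from -0.03 to 0.06 and that for andal261 against andal260, 0.01, from -0.11 to 0.11, so neither has a settled sign. Alternatives shifted the median of all clusters by -0.21 to 0.18 over the comparisons.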

Other observations

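Over all 124 members, 1 library stood apart from the other 3 of its subspecies in 14 members within andalusicum (11.3%), 6 within marifolium (4.84%), 2 within molle (1.61%) and 8 within origanifolium (6.45%). The test's nominal rate of about 1 in 20 holds for normally distributed values. The share over all shared clusters is not given here, so no excess in members or in andalusicum is read from these counts. The member with the 14th largest gap, a transcript of 2514 nt chosen after its values were seen, had 185.6, 61.1, 272 and 109.8 CPM in andalusicum 1, 3, 6 and 8, against 5.36 to 41.0 CPM in the others. Its andalusicum mean was 157 ± 92.2 CPM and that of the others 14.0 ± 9.48 CPM, 11.2-fold apart, which with the 25.2-fold of the second largest gap makes up the 2 members past 10-fold. A member with a further large fold of means, 9.17, split by title code within andalusicum, at 11.3 and 9.12 CPM in andalusicum 6 and 8 of andal261 and 40.5 and 48.7 CPM in andalusicum 1 and 3 of andal260, against 0.614 to 7.41 CPM in the others. It too was picked after its values were seen.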
